A study of Homo sapiens with 6 samples.

Results

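ATP-binding cassette (ABC) transporter genes were examined in HepG2-hCAR cells. This line is 1 clone of HepG2, a line from a human liver carcinoma, and carries a lentiviral cDNA for the nuclear receptor CAR (constitutive androstane receptor, gene NR1I3) that doxycycline switches on. Members were the rows whose symbol is ABC, a letter from A to G and a number, and 31 of the 11456 genes in the table met this rule. Of 45 protein-coding symbols of this form in RefSeq, the other 14, among them the bile salt export pump ABCB11 and the sterol exporter ABCG1, were not analysed here. All libraries came from this clone after 72 h, of which 3 received vehicle and 3 received doxycycline at 1 µg/ml, and polyadenylated RNA was sequenced with strand-specific libraries. Since cells lacking the transgene were not among the libraries, drug and receptor effects cannot be told apart. Whether replicate libraries are separate cultures is not stated, so the p-values reflect the spread of these libraries alone, possibly technical spread.

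ABC proteins bind and hydrolyse ATP through paired nucleotide-binding domains. Members of subfamilies A, B, C, D and G use this to move lipids, bile constituents, drugs, peptides or metabolites across membranes, while E and F members have no membrane domain and act on ribosomes. In hepatocytes, exporters of the canalicular membrane form bile and those of the basolateral membrane return conjugates to the blood, and CAR is known as a regulator of several of these genes.

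The promoter sequences of 3 members are shown because ABCC2 had the largest rise, ABCA1 had the largest fall, and ABCG8 shares its promoter region with ABCG5. RefSeq promoter windows of GRCh38.p14 were found for 25 of the 31 members, 37 windows in all. The 250 bases before the annotated start are given 5′ to 3′ on the gene's strand. Capitals mark every match, on either strand, to the sequences searched. The first is a direct repeat that reads NGGTNA, then 4 bases of any kind, then NGGTCA. Repeats of this kind are bound by nuclear receptors with RXR, liver X receptors among them. The others are the E-box CACGTG and 4 hexamers bound by nuclear receptors. The windows are ABCA1 chr9:104928156-104928405 on the minus strand, ABCC2 chr10:99782390-99782639 on the plus strand and ABCG8 chr2:43838721-43838970 on the plus strand.
ABCA1: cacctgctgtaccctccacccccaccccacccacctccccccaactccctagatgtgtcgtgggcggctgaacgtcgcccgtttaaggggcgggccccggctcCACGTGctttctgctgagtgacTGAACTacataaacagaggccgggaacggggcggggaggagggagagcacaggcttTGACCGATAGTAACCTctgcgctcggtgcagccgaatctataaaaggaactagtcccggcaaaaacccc
ABCC2: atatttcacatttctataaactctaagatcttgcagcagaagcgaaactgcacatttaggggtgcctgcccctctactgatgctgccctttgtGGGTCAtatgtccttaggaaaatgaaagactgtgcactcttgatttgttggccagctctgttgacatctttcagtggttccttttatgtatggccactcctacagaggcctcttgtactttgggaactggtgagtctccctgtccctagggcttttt
ABCG8: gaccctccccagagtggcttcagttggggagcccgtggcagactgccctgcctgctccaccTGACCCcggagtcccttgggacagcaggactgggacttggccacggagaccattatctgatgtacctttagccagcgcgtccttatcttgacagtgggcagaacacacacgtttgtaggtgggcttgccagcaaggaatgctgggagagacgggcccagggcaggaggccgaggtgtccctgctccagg

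The ABCA1 window held the repeat TGACCGATAGTAACCT from 69 to 54 bases before the start, and the E-box and 1 hexamer farther upstream. This repeat pattern was found in 75 of all 35116 windows of this length (0.214%) and in 1 of the 37 member windows. The E-box occurred in 6.34% of all windows and in 7 of the 37 member windows, some of which belong to the same gene. The hexamer AGGTCA occurred in 12.1% of all windows, while AGTTCA was in 8.80%, the form GGGTCA in 12.1% (9 of the 37 member windows, with ABCG5 and ABCG8 sharing bases) and the form GGTTCA in 7.16%, and the last hexamer of the direct repeat can overlap one of these. At least 1 of the hexamers occurred in 33.8% of all windows and in 14 of the 37 member windows, so the single hexamers of ABCC2 and ABCG8 are common. These matches describe the letters and do not show binding, nor which receptor would bind.

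The labelled cells and the induction were checked first. NR1I3 was at 3.15, 3.01 and 3.56 FPKM in the vehicle libraries and at 331, 317 and 316 FPKM in the doxycycline libraries. FPKM, a fragment count per transcript length and mapped total, is scaled to gene length and library, so levels can be compared between genes but depth is unknown. All 10 hepatocyte and hepatoma markers checked were in the table, with APOB at 819 FPKM in the vehicle group but ALB at only 1.87 FPKM. Where 13.6% of all genes tested were called lower with doxycycline, 7 of these 10 markers were. Their summed level was 1941 to 2100.0 FPKM with vehicle and 820 to 829 FPKM with doxycycline, and the part of this decline in the results below was not tested. Of 10 markers of endothelial cells, leukocytes and fibroblasts, 3 were in the table, with a summed level of 26.7 to 27.8 and 22.7 to 24.3 FPKM, and the 2 that were tested, ACTA2 and CD68, were lower. The other, the monocyte marker CD14, moved the other way, at 0.0853, 0.0347 and 0.0533 FPKM with vehicle and 1.85, 1.91 and 2.00 FPKM with doxycycline, without overlap, and its mean was under 1 FPKM. The part of these markers in the results was not tested. The defining markers PECAM1, PTPRC and COL1A1 were not analysed here.

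Of 7 tested drug and conjugate pumps of the cell surface 4 rose with doxycycline and 1, ABCG2, fell. Of 5 tested lipid and sterol exporters of the surface 3 fell and none rose. These roles were grouped after the values were seen, and ABCC6, which fell, and ABCA3, which rose, were placed in other groups. The split by role thus depends in part on this grouping. ABCC2 had the largest rise, 1.85-fold, and ABCA1 the largest fall, 2.00-fold. Genes with a mean of at least 1 FPKM over the 6 libraries were tested with limma on log2(FPKM + 1), and calls were made below an adjusted p of 0.05, adjusted over all 10469 genes tested. Of the 31 members 26 were tested, and 15 of these were called, where 28.8% of all genes tested were called. There were 8 members called higher (ABCA3, ABCB1, ABCC1, ABCC2, ABCC3, ABCF1 and ABCF2 among them), against 15.2% of all genes, and 7 called lower (ABCA1, ABCA7, ABCB10, ABCC6, ABCG2 and ABCG8 among them), against 13.6%. The median log2 fold change of the tested members was -0.02, beside 0.01 for all genes, and the median absolute value was 0.21, beside 0.13. In 18 tested members the groups did not overlap, against 47.1% of all genes tested, with 9 higher (24.8% of all genes) and 9 lower (22.3%). In such bulk samples fewer cells expressing a gene and less RNA per cell cannot be told apart.

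**Figure D1:**
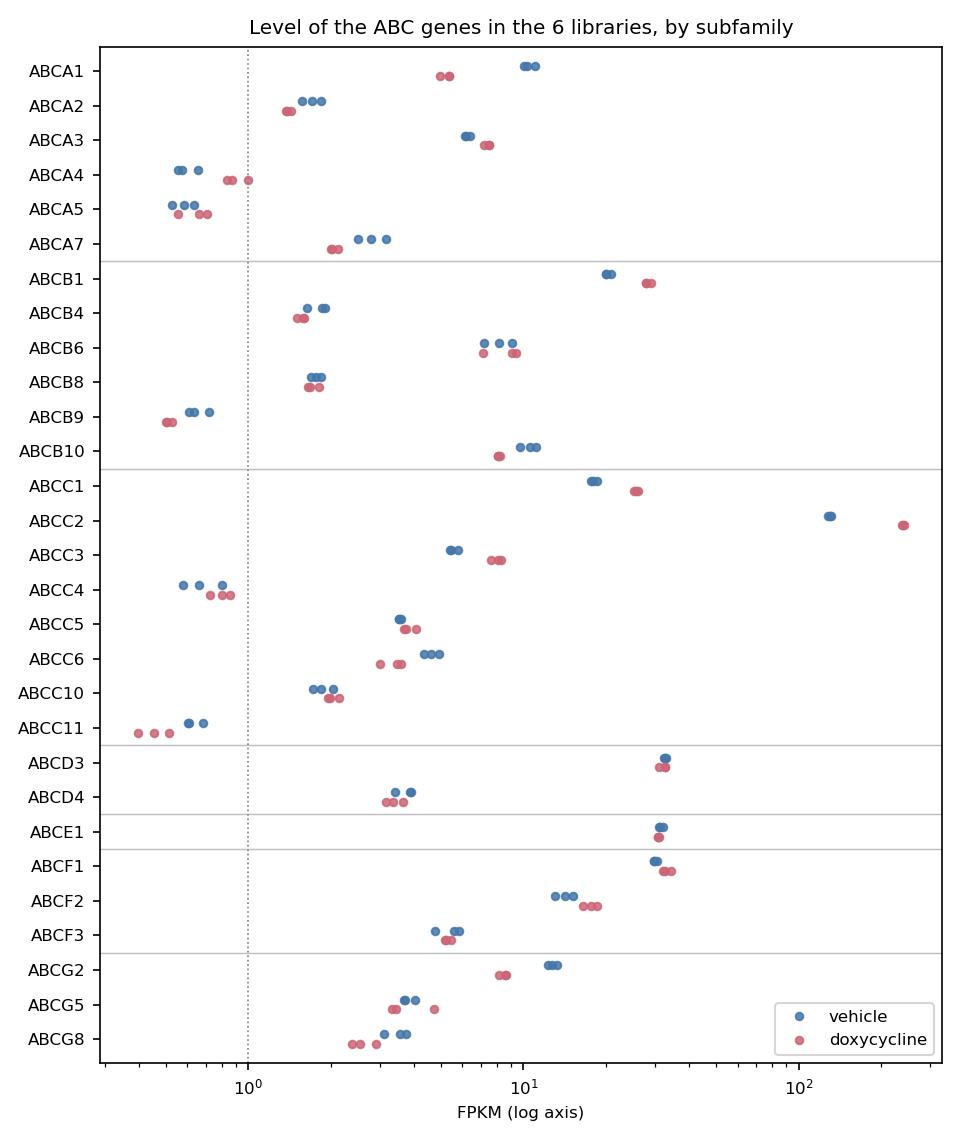
FPKM of the ABC genes described in the text in every library on a log axis, grouped by subfamily, with vehicle in blue and doxycycline in red; the dotted line marks 1 FPKM. ABCC2 lies far above the other members in all 6 libraries, and 5 members have a mean under 1 FPKM.

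**Figure D2:**
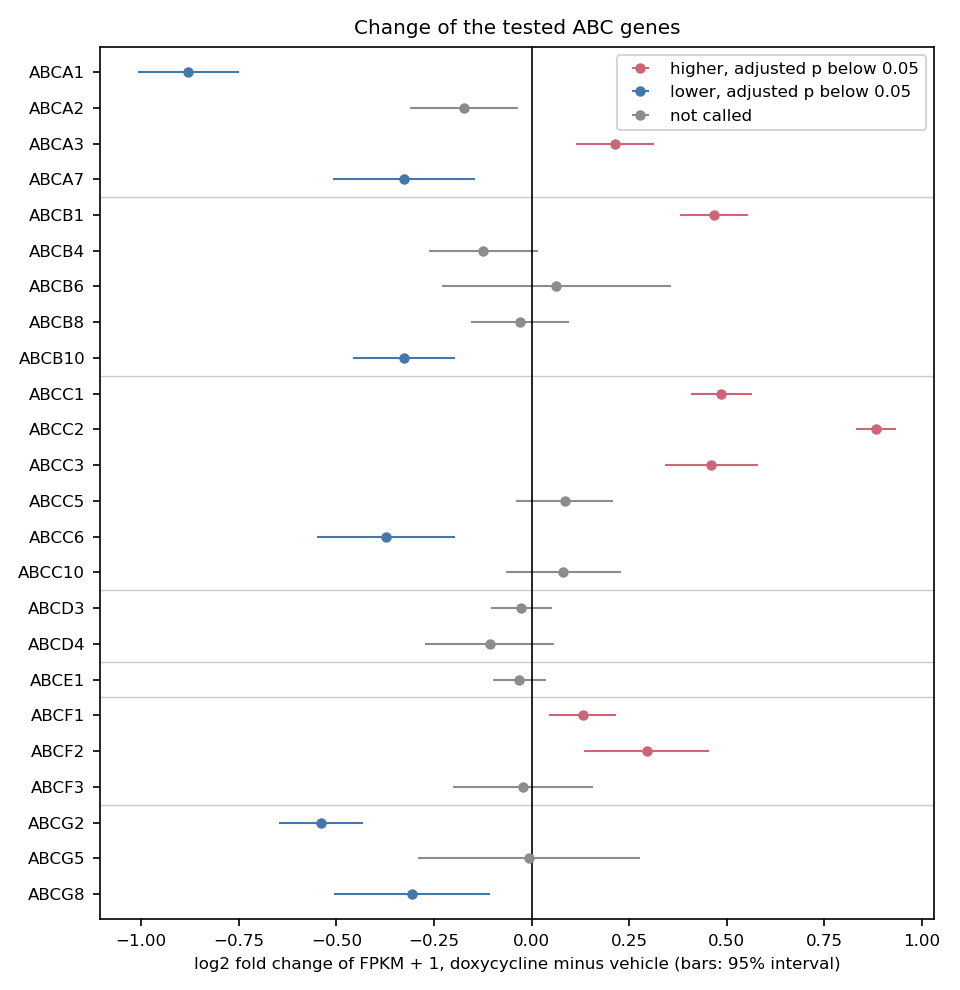
Log2 fold change of FPKM + 1 (doxycycline minus vehicle) of the tested ABC genes described in the text with 95% intervals, red where called higher, blue where called lower and grey where not called. Members of subfamilies A, B and C lie on either side of 0, from -0.88 for ABCA1 to 0.88 for ABCC2.

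The largest increase was that of an exporter of drugs and conjugates at the cell surface, ABCC2. ABCC2 (MRP2), which moves bilirubin glucuronide and other conjugates into bile, lies on chromosome 10 of GRCh37 at 101542489 to 101611949. It was at 128, 130.3 and 131 FPKM in the vehicle libraries and at 240.0, 238 and 241 FPKM in the doxycycline libraries. The groups were far apart relative to their spread, with a log2 fold change of 0.88 (SE 0.02, limma adjusted p = 1.09e-05). It was the most abundant ABC mRNA in either group, and its mean level was at the 99.2th percentile of all genes in the table.

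ABCB1 (P-glycoprotein), the canalicular pump of many lipophilic drugs, lies on chromosome 7 at 87132949 to 87342639. Its levels were 20.9, 19.9 and 19.9 FPKM with vehicle and 27.8, 29.2 and 27.9 FPKM with doxycycline. No library of one group reached the other, and the log2 fold change was 0.47 (SE 0.04, limma adjusted p = 3.19e-04). RUNDC3B, which overlaps ABCB1 on the opposite strand, averaged 0.508 and 1.47 FPKM and was not tested.

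ABCC1 (MRP1), an exporter of glutathione conjugates, lies on chromosome 16 at 16043434 to 16236931. It had 17.6, 18.5 and 17.9 FPKM with vehicle and 25.6, 25.999 and 25.3 FPKM with doxycycline. This was a rise of 1.42-fold with no overlap (log2 fold change 0.49, limma adjusted p = 1.84e-04). ABCC3 (MRP3), the basolateral pump that returns glucuronides to the blood (chromosome 17, 48712138 to 48769613), stood at 5.40, 5.76 and 5.46 FPKM with vehicle and at 7.62, 8.30 and 8.07 FPKM with doxycycline. Its rise of 1.44-fold was close to that of ABCC1 and ABCB1 (log2 fold change 0.46, limma adjusted p = 1.18e-03).

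**Figure D3:**
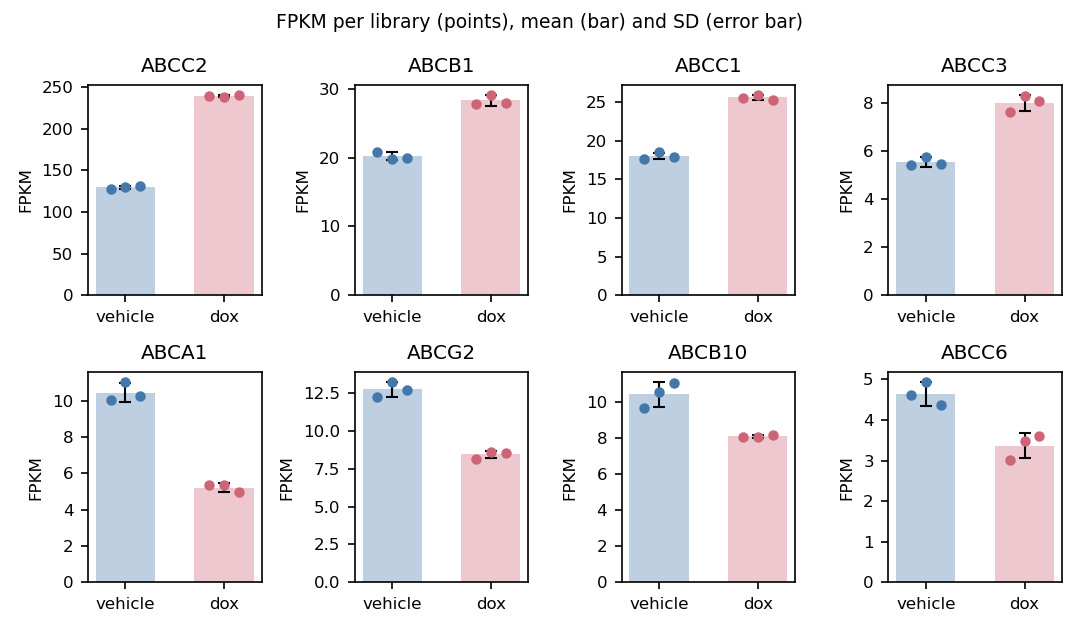
FPKM of 8 called ABC genes in each library (points), with group means (bars from 0) and SD (error bars), for vehicle and doxycycline (dox). In all 8 panels the points of the groups are apart, with ABCC2 rising from a mean of 129.6 to 239.8 FPKM and ABCA1 falling from 10.4 to 5.22 FPKM.

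ABCG2 (BCRP), an apical pump of drugs, sulfate conjugates and urate, moved the other way. On chromosome 4 at 89011416 to 89152474, it was at 12.2, 13.2 and 12.7 FPKM with vehicle and at 8.14, 8.61 and 8.55 FPKM with doxycycline. Every doxycycline library was below every vehicle library, a 1.51-fold decrease (log2 fold change -0.54, SE 0.04, limma adjusted p = 3.99e-04).

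The remaining drug and conjugate pumps had small or no detected differences. ABCC5 (MRP5), an exporter of cyclic nucleotides, averaged 3.55 ± 0.0384 and 3.83 ± 0.216 FPKM (mean ± SD, n = 3 libraries), with a 95% interval of the log2 fold change from -0.04 to 0.21. The ABCC5 groups did not overlap, but the difference was not called (limma adjusted p = 0.266). ABCC10 averaged 1.86 ± 0.156 and 2.02 ± 0.0956 FPKM, with an interval from -0.07 to 0.23. The opposite-strand neighbour DLK2, which overlaps ABCC10, fell from 2.16 to 0.916 FPKM (limma adjusted p = 3.08e-03). ABCC4 (MRP4), a basolateral exporter of bile salts and nucleotides, was below the level for testing at 0.801, 0.577 and 0.664 FPKM with vehicle and 0.726, 0.856 and 0.799 FPKM with doxycycline, and the groups overlapped. ABCC11 was also untested, at 0.631 ± 0.045 and 0.455 ± 0.0587 FPKM, without overlap.

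ABCC6, which mediates release of ATP from liver cells, fell although it belongs to the same subfamily as the MRPs. It lies on chromosome 16 at 16242785 to 16317379, next to ABCC1 and on the opposite strand. The vehicle libraries had 4.62, 4.94 and 4.36 FPKM and the doxycycline libraries 3.01, 3.48 and 3.598 FPKM. The groups were apart and the decrease was 1.38-fold (log2 fold change -0.37, SE 0.07, limma adjusted p = 0.0121). ABCC6 has near-identical partial pseudogene copies on the same chromosome, and how the authors assigned shared reads is not given in the sources used here, so its level is uncertain.

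Lipid exporters of the cell surface were lower where they changed. Of the 5 grouped here after the values were seen, 3 were called lower (ABCA1, ABCA7 and ABCG8) and none higher. Over all genes tested, 13.6% were called lower and 15.2% higher. The ABCA7 and ABCG8 calls ended when some single libraries were left out. ABCA1, which loads cholesterol and phospholipid onto apolipoprotein A-I to start HDL formation, lies on chromosome 9 of GRCh37 at 107543283 to 107690518. It was at 10.02, 11.04 and 10.3 FPKM with vehicle and at 5.34, 5.37 and 4.96 FPKM with doxycycline. The groups were well separated, with a log2 fold change of -0.88 (SE 0.05, limma adjusted p = 1.27e-04).

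ABCA7, a phospholipid exporter related to ABCA1 (chromosome 19, 1040100 to 1065571), was at 2.50, 3.16 and 2.80 FPKM with vehicle and at 2.12, 1.99 and 2.01 FPKM with doxycycline. The groups did not overlap, but the spread among vehicle libraries was wide and the call was marginal (log2 fold change -0.33, limma adjusted p = 0.0215). It ended without vehicle replicate 3 (adjusted p = 0.0611), without doxycycline replicate 1 (0.0505), 2 (0.0650) or 3 (0.0648) in the same limma fit, and with the replicate number as a block (0.0630). Over all alternatives the limma adjusted p of ABCA7 ranged from 0.0155 to 0.0650.

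ABCG5 and ABCG8 pair as sterolin-1 and sterolin-2 to export plant sterols and cholesterol into bile, and their genes lie head to head on chromosome 2 (44039611 to 44066004 and 44066103 to 44105605) with 98 bases between them. Their RefSeq promoter windows share 231 bases. ABCG8 was at 3.73, 3.10 and 3.56 FPKM with vehicle and at 2.54, 2.38 and 2.90 FPKM with doxycycline, without overlap (log2 fold change -0.31, limma adjusted p = 0.0366). ABCG5 was at 3.69, 4.04 and 3.71 FPKM with vehicle and at 3.32, 4.73 and 3.43 FPKM with doxycycline, where 1 library lay above all vehicle libraries and the others lay below them. The log2 ratio of ABCG8 to ABCG5 went from -0.11 to -0.41, and the library values of the groups overlapped (exact two-sided permutation p = 0.3, where 3 against 3 libraries cannot go below 0.1). Whether the partners responded differently cannot be settled with this test. The ABCG8 call ended without vehicle replicate 1 (limma adjusted p = 0.103) or 3 (0.102) as well as doxycycline replicate 1 (0.0989) or 2 (0.1003). Its limma adjusted p lay between 0.0323 and 0.103 under the alternatives.

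ABCB4 (MDR3), the canalicular phosphatidylcholine floppase, was at 1.85, 1.89 and 1.63 FPKM with vehicle and at 1.57, 1.59 and 1.51 FPKM with doxycycline. The doxycycline values were below all vehicle values, but the difference was not called (log2 fold change -0.12, 95% interval -0.26 to 0.02, limma adjusted p = 0.160). Its close relative and chromosome 7 neighbour ABCB1 rose, and the log2 ratio of ABCB1 to ABCB4 went from 2.93 ± 0.0707 to 3.52 ± 0.0292 (SD, n = 3). That shift had an exact two-sided permutation p of 0.1, the smallest that 3 against 3 libraries allow, and 0.117 after adjustment over the 7 pairs of members compared. Of these pairs, chosen after their values were seen, 6 had this p and did not overlap. The groups of ABCB1 and of ABCB4 were already apart in opposite directions, so this ratio had to separate and its p adds no evidence.

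Lipid transporters of lysosomes and related vesicles were weakly expressed apart from ABCA3. ABCA3, the phospholipid importer of lamellar bodies (chromosome 16, 2325882 to 2390747), was at 6.19, 6.15 and 6.41 FPKM with vehicle and at 7.199, 7.52 and 7.49 FPKM with doxycycline. Its rise was small but larger than the spread (1.18-fold, log2 fold change 0.21, limma adjusted p = 0.0115). ABCA2 averaged 1.70 ± 0.140 and 1.40 ± 0.0319 FPKM without overlap, and was not called (limma adjusted p = 0.0680) except without the variance trend (0.0458), in a range of 0.0458 to 0.165 over the alternatives. ABCA5 was untested at 0.581 ± 0.0537 and 0.641 ± 0.0791 FPKM. ABCA4, known as the retinoid transporter of photoreceptors, was untested too, with 0.654, 0.553 and 0.572 FPKM against 0.873, 0.833 and 0.999 FPKM. The ABCA4 groups did not overlap, and its limma adjusted p was 0.0209 when no genes were filtered out.

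The mitochondrial transporters of subfamily B serve iron and heme metabolism. ABCB10, an inner membrane transporter needed for heme synthesis (chromosome 1, 229652329 to 229694442), was at 9.69, 10.6 and 11.1 FPKM with vehicle and at 8.07, 8.07 and 8.20 FPKM with doxycycline. The doxycycline values were tightly grouped below the vehicle range (log2 fold change -0.33, SE 0.05, limma adjusted p = 6.22e-03). ABCB8 averaged 1.76 ± 0.0731 and 1.71 ± 0.0861 FPKM, with a 95% interval of the log2 fold change from -0.16 to 0.10. ABCB6, a porphyrin transporter, varied within groups, at 7.17, 9.09 and 8.12 against 7.15, 9.41 and 9.10 FPKM, and it overlaps ATG9A on the same strand.

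The peroxisomal transporters of subfamily D import fatty acyl-CoA for oxidation. ABCD3 (PMP70), the abundant carrier of branched and long chain acyl-CoA, had 33.1, 32.5 and 32.7 FPKM with vehicle and 31.04, 32.7 and 32.7 FPKM with doxycycline. Its groups overlapped, and the 95% interval of its log2 fold change was -0.10 to 0.05. ABCD4, the lysosomal exporter of vitamin B12, averaged 3.73 ± 0.275 and 3.39 ± 0.234 FPKM, with an interval from -0.27 to 0.06. ABCB9, a lysosomal peptide transporter, was untested at 0.654 ± 0.0588 and 0.511 ± 0.0141 FPKM, without overlap.

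The soluble members of subfamilies E and F were among the more abundant. ABCE1, which splits ribosomes after termination, was at 31.1, 31.3 and 32.3 FPKM with vehicle and at 31.1, 30.8 and 30.7 FPKM with doxycycline, and its 95% interval of the log2 fold change was -0.10 to 0.04. ABCF1, a factor of translation initiation (chromosome 6, 30539153 to 30564956), was at 29.8, 30.7 and 29.8 FPKM against 32.2, 32.6 and 34.3 FPKM. The difference of 1.10-fold was called (log2 fold change 0.13, limma adjusted p = 0.0366). It was not called when any 1 library was left out (0.0960, 0.0629 and 0.101 without vehicle replicates 1, 2 and 3, and 0.0542, 0.0700 and 0.0865 without doxycycline replicates 1, 2 and 3), nor with the block (0.0806) or without the variance trend (0.0615), and the limma adjusted p ranged from 0.0234 to 0.101.

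ABCF2, a soluble ABC ATPase (chromosome 7, 150904923 to 150924316), rose from 13.1, 15.1 and 14.2 FPKM to 16.5, 17.6 and 18.5 FPKM. The groups did not overlap (1.24-fold, log2 fold change 0.29, limma adjusted p = 0.0200). The ABCF2 call ended without vehicle replicate 3 (0.0557) and without doxycycline replicate 2 (0.0596) or 3 (0.0613), with a range of 0.0180 to 0.0613 over the alternatives. ABCF3 averaged 5.40 ± 0.564 and 5.29 ± 0.129 FPKM and its groups overlapped.

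In subfamilies A, C, E, F and G, the others not being tallied here, 3 of 4 tested A members were called (1 higher, 2 lower), 4 of 6 in C (3 higher, 1 lower), 0 of 1 in E, 2 of 3 in F (higher) and 2 of 3 in G (lower), beside 28.8% of all genes tested (15.2% higher and 13.6% lower). The summed level of the 31 members was 379, 392 and 388 FPKM with vehicle and 503, 510.4 and 514 FPKM with doxycycline, a ratio of 1.32. Without ABCC2 the ratio of the sums was 1.05. ABCC2 made up 33.7%, 33.2% and 33.7% of the sum in the vehicle libraries and 47.7%, 46.7% and 46.9% in the doxycycline libraries. The share of subfamily G went from 5.17% ± 0.0245 to 2.92% ± 0.151 and that of subfamily A from 5.79% ± 0.145 to 3.46% ± 0.0445 (SD, n = 3). Every share except that of subfamily C fell, as the sum rose with ABCC2, so a lower share need not mean a lower level. The share of E, whose only member ABCE1 was not called, went from 8.17% ± 0.162 to 6.06% ± 0.111.

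**Figure D4:**
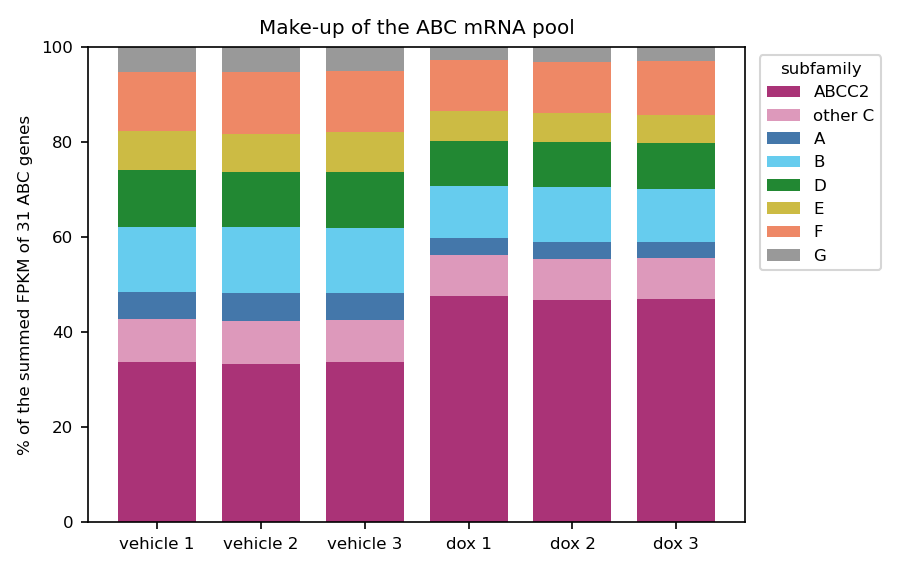
Share of the summed FPKM of the 31 ABC genes taken by ABCC2, by the rest of subfamily C and by each other subfamily, 1 bar per library (dox, doxycycline). ABCC2 takes 33.2% to 33.7% with vehicle and 46.7% to 47.7% with doxycycline.

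The order of levels changed below ABCC2. With vehicle ABCD3, ABCE1, ABCF1, ABCB1 and ABCC1 followed, and the library ranges of these neighbours did not overlap. With doxycycline ABCF1, ABCD3 and ABCE1 overlapped one another in turn, and ABCB1 and ABCC1 came next. ABCA1 moved from rank 10 to rank 16 and ABCG2 from rank 8 to rank 11. Of the 30 neighbouring pairs in this order, 18 had overlapping library ranges with vehicle and 12 with doxycycline.

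Genes that work beside these transporters were read from lists. The counts of each list stand beside 15.2% of all genes tested called higher and 13.6% called lower. Of 7 tested hepatic uptake and other efflux carriers, 4 were lower and 1 higher. SLC51B, a subunit of the basolateral bile salt exporter, rose from 12.5, 10.4 and 10.6 FPKM to 42.3, 37.7 and 41.1 FPKM (limma adjusted p = 4.22e-05). The organic cation carrier SLC22A3 fell from 5.93 ± 0.536 to 1.34 ± 0.119 FPKM and the organic anion carrier SLCO2B1 from 4.29 ± 0.218 to 1.71 ± 0.594 FPKM. ATP8B1, the canalicular flippase that works opposite ABCB4, fell from 3.87 ± 0.0823 to 1.93 ± 0.113 FPKM. The direction of the canalicular linkers was mixed, with 3 of 7 tested higher and 3 lower. PDZK1, a scaffold that binds apical transporters, fell from 7.05 ± 0.0957 to 2.62 ± 0.419 FPKM, while radixin (RDX), which anchors ABCC2, rose from 25.7 ± 1.11 to 33.1 ± 0.974 FPKM (chosen after its values were seen).

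Partners of sterol efflux were called in both directions, 5 of 12 lower and 3 higher, beside 13.6% and 15.2% of all genes tested. APOA1, the acceptor of lipid from ABCA1, fell from 294 ± 17.2 to 85.6 ± 3.42 FPKM (limma adjusted p = 1.15e-05). MYLIP, a target of liver X receptors that degrades the LDL receptor, went from 2.11 ± 0.295 to 0.920 ± 0.339 FPKM. MYLIP was no longer called on omitting vehicle replicate 2 (limma adjusted p = 0.0542) or 3 (0.0512), in a range of 0.0158 to 0.0542. Other liver X receptor targets of the list were mixed, with SREBF1 and SMPDL3A called higher and LPCAT3 lower (chosen after their values were seen). Their log2 fold changes were 0.27, 0.35 and -0.23 (limma adjusted p = 0.0174, 0.0186 and 0.0104). Of 14 tested regulators of transporter genes 4 were higher, NR1I3 included, and 5 lower. AHR, the aryl hydrocarbon receptor, rose from 12.8 ± 0.172 to 21.3 ± 1.67 FPKM, and NR0B2, which encodes the corepressor SHP, was lower at 40.4 ± 0.774 against 81.5 ± 4.96 FPKM. RXRA, the shared partner of CAR and the liver X receptors, fell from 5.47 ± 0.0965 to 3.81 ± 0.224 FPKM (limma adjusted p = 1.90e-03, chosen after its values were seen). Of the liver X receptor genes NR1H2 was higher and NR1H3 lower, and RXRB was not called (limma adjusted p = 0.0342, 0.0164 and 0.921). These were also chosen after their values were seen.

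Other partner lists were read the same way, beside 28.8% of all genes tested called (15.2% higher and 13.6% lower). Of 12 peroxisomal partners 4 were lower and 1 higher, with EHHADH and ACAA1, enzymes of peroxisomal oxidation, falling from 10.7 ± 0.567 to 5.41 ± 0.104 FPKM and from 14.4 ± 0.779 to 7.91 ± 0.236 FPKM. Of 8 iron and heme partners of the mitochondrial transporters 1 was called, ALAS1, the first enzyme of heme synthesis, higher at 10.8 ± 0.574 against 9.19 ± 0.231 FPKM. That call ended with the block (limma adjusted p = 0.0655) and without vehicle replicate 1 (0.0596) or 2 (0.0667), and its limma adjusted p was 0.0186 to 0.0667 over the alternatives. Of 11 translation partners 3 were higher and 1 lower, with the termination factor ETF1 rising from 37.8 ± 0.475 to 51.3 ± 0.682 FPKM. The 36.4% of translation partners called was near the share of all genes. Neither of the ABC peptide transporters with other symbols was called, TAP1 at 2.13 ± 0.184 and 1.87 ± 0.113 FPKM and TAP2 at 3.12 ± 0.151 and 2.93 ± 0.124 FPKM, although 3 of 5 tested members of their peptide loading complex were lower. None of 5 tested cobalamin partners of ABCD4 was called by limma, with 2 at an unadjusted p under 0.05. Both potassium channel subunits that pair with ABCC8 and ABCC9 were not analysed here.

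**Figure D5:**
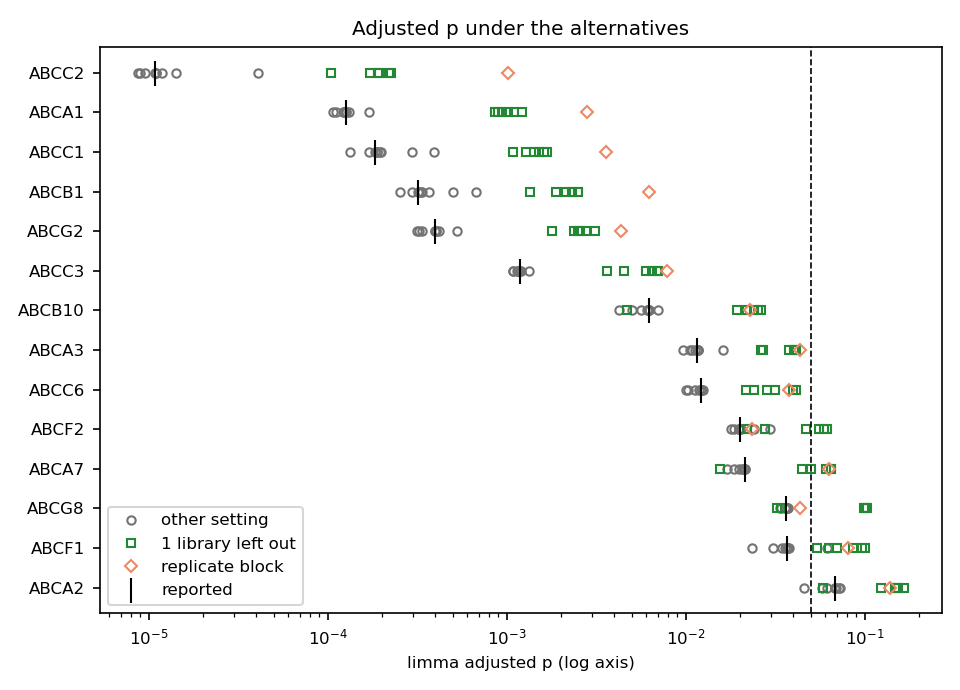
Limma adjusted p (log axis) of the called ABC genes described in the text and of ABCA2 as reported (black bars) and under each alternative, with leave-one-out fits as squares and the replicate block as diamonds; the dashed line marks 0.05. For the genes from ABCC2 down to ABCC6 every value stays left of the line.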

How the data were processed

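The authors deposited 1 table of FPKM for 6 libraries, 1 column each and none pooled per the labels. The submitters' processing notes list StringTie, HISAT2, cutadapt and FastQC, with GRCh37 as build and no versions, and the annotation and the handling of strand and shared reads are not given in the sources used here. Of 11461 entries, 10 shared 5 symbols, and the entry with the highest mean represented each, leaving 11456 genes. FPKM sums were 204318 to 209372 per library, depth is unknown, and no counts were used.

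Genes with a mean of at least 1 FPKM entered limma 3.58.1 (R 4.3.3) as log2(FPKM + 1), which understates changes of low genes. Group was the only term, the variance followed a trend on the mean, the test was two-sided, and p-values were Benjamini-Hochberg adjusted over 10469 genes. Log2 ratios of 7 pairs of members, chosen after their values were seen, were compared with exact permutation tests. Simulated data of 10469 genes for this comparison returned 66.2%, 92.5% and 100% of genes changed by 0.5, 1 and 2 on the log2 scale. There were 8 false among 175 calls. In the simulation 80, 80 and 40 genes were changed by these amounts, with the weakest genes left out. The rates may therefore differ for weak members and for data with 3012 called genes.

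The members and lists were chosen with earlier results of these data known. The rule names every ABC gene, though 2 members are counted in the totals but not reported here by name or in the figures of single genes, and of each partner list the called genes changed by at least 0.5 on the log2 scale or otherwise the 2 with the largest change; other genes named are said to be chosen later, except the markers and overlapping neighbours. Roles were grouped after the values were seen. Alternatives were pseudocounts of 0.1 and 0.5, no filter, a minimum mean of 5 FPKM, median-ratio scaling, quantile normalization, no trend, robust moderation, the replicate block, summed entries, a stricter adjusted p of 0.01, and omission of single libraries. Their use for partner genes was added after seeing the data. Figures were drawn with matplotlib 3.10.9.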

Additional observations from a re-analysis of the deposited data

How the results depend on the processing

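Leaving aside the stricter adjusted p of 0.01, 10 of the 15 called members kept their call in every alternative in which they were tested. The other 5 (ABCA7, ABCF1, ABCF2 and ABCG8 among them) lost it in at least 1 of these alternatives. The stricter limit also ended the calls of ABCA3 and ABCC6, which are among those 10. Depth is unknown, so its limit on weak members such as ABCC4 cannot be given. Leaving out 1 library gave 10 to 13 changed members, 6 to 7 higher and 4 to 6 lower, with 4 lower without doxycycline replicate 2. At an adjusted p below 0.01 there were 8 changed, 5 higher and 3 lower, and a minimum of 5 FPKM, which tests fewer genes, left 4 lower.

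Same-numbered libraries showed no strong shared deviation, with correlations of 0.015, -0.0321 and 0.0917 over genes. Differently numbered libraries ranged from -0.0982 to 0.0836. With 3 libraries per group this check cannot exclude pairing, and the labels give only a shared number. With the replicate block all genes called went from 3012 to 2343, and ABCA7 and ABCF1 were among the members not called. The block gave 3 peroxisomal, 0 mitochondrial and 1 translation partner called.

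With a minimum of 5 FPKM 2 uptake carriers and 5 regulators were called. At an adjusted p below 0.01 there were 3 sterol efflux, 2 peroxisomal, 0 mitochondrial and 1 translation partners. Quantile normalization left 1 peptide loading gene. Leaving out 1 library gave 5 to 7 sterol efflux partners (5 without vehicle replicate 3) and 2 to 4 peroxisomal partners (3 without vehicle replicate 1 or 2, 2 without doxycycline replicate 1 or 2). It gave 0 to 1 mitochondrial partners (0 without vehicle replicate 2), 1 to 3 translation partners (1 without vehicle replicate 1 or 3, 2 without doxycycline replicate 1 or 3) and 0 to 2 cobalamin partners (2 without vehicle replicate 2). The cause of these changes was not tested.

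Some uncalled genes close to 0 changed sign when 1 library was left out. The log2 fold change ranged from -0.014 to 0.17 for ABCB6, from -0.096 to 0.028 for ABCF3, from -0.14 to 0.068 for ABCG5 and from -0.60 to 0.14 for B2M, a peptide loading gene.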
